A study of Mus musculus with 15 samples.

Results

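The mature miRNAs of the miR-28, miR-151 and miR-708 hairpins were followed through mouse lung injured with bleomycin, a DNA-damaging drug that inflames and scars the lung. The members are the 6 rows of the deposited table named for either arm of miR-28a, miR-151 or miR-708, out of 1424 mature miRNAs. They were taken by name, and the family was chosen by its measured log2 values in R213G lungs, where a lower miR-151-3p after bleomycin was already known from these libraries. The R213G bleomycin difference is therefore given for every member as a description without a test.

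The 15 libraries are from whole lungs of C57BL/6 mice labelled 11 weeks old and dosed at 8 to 12 weeks. The groups were R213G bleomycin (4 libraries), R213G PBS (4), WT bleomycin (4) and WT PBS (3). R213G mice are homozygous for a variant of extracellular superoxide dismutase (EC-SOD), an antioxidant enzyme of the extracellular space, and WT mice carry the unaltered enzyme. Each mouse received 100 uL into the trachea, either bleomycin at 1 U/mL in phosphate-buffered saline (PBS) or PBS alone, and the flushed lungs were taken on day 7. Mice of either sex were included, with no sex stated per library. The labels do not say that every library is a separate mouse, so p-values measure the spread between libraries.

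A miRNA hairpin is cut into a 5p and a 3p arm, and an arm loaded into Argonaute represses messenger RNAs that match its seed, bases 2 to 8. These 3 hairpins resemble each other in sequence and are grouped as 1 family. Each lies in an intron of a protein-coding gene on the gene's own strand, by GENCODE on GRCm38. Mir28a (chr16:24827855-24827940, + strand) sits in Lpp, a LIM-domain protein of focal adhesions that is abundant in smooth muscle. Mir151 (chr15:73254815-73254882, - strand) sits in Ptk2, which encodes focal adhesion kinase. Mir708 (chr7:96249424-96249532, + strand) sits in Tenm4, a teneurin transmembrane protein. In human cells miR-28-5p represses the antioxidant regulator NRF2, and miR-151 promotes migration of liver cancer cells. In mouse cells miR-708 is induced together with its host gene by CHOP, a transcription factor of the unfolded protein response.

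The mature sequences of miR-28a and miR-708 are shown because they place a shared seed on hairpins that moved in opposite directions after bleomycin. RefSeq (GRCm38.p6) held 4 of the 6 members, and the capitals mark the seed.
mmu-miR-28a-5p: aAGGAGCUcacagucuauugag
mmu-miR-708-5p: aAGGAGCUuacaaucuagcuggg
mmu-miR-28a-3p: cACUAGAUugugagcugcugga
mmu-miR-708-3p: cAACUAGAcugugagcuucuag
The 5p arms share the seed AGGAGCU and are identical at 16 of the 22 positions that can be aligned from the 5′ end. With positions counted from 1 at the 5′ end and the miR-28a-5p base given first, they differ by C9U, G13A, U18G, U19C, G20U and A21G, all 3′ of the seed. The 3p arms are offset by 1 base, so their seeds differ (ACUAGAU in miR-28a-3p and AACUAGA in miR-708-3p), while 17 of 21 bases match once miR-708-3p is read from its base 2. RefSeq's table matched 1199 of the 1424 deposited rows by name, and among its entries no other mature miRNA carries any of these seeds at bases 2 to 8. The remaining members are miR-151-5p and miR-151-3p.

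Values below are taken to be log2 of 1 plus an equalized count, a read count adjusted by the authors for library size. This unit was inferred from the values, while the authors' name for the deposited data mentions RPKM, a length-scaled read measure. The libraries' summed equalized counts lay between 18087289.8 and 24759615.3, and the depth in reads is unknown. All 6 members passed the filter that 818 miRNAs passed (more than 5 equalized counts in 3 or more libraries). The members spanned a wide range of abundance. By its mean over all 15 libraries miR-151-3p (16.53) ranked 33rd of the 818, miR-151-5p (16.05) ranked 40th, miR-28a-5p (12.89) ranked 103rd and miR-28a-3p (11.24) ranked 154th. The miR-708 arms were scarce, with miR-708-5p (7.55) in rank 313 and miR-708-3p (7.21) in rank 336. Sequences differ in how well they are captured in a library, so the order between miRNAs is less certain than differences of 1 miRNA between groups. Only the last neighbours in that order changed places in any library, as miR-708-5p lay above miR-708-3p in 14 of 15.

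The 6 members together made up 0.750% ± 0.032 of all equalized counts in R213G bleomycin lungs and 0.945% ± 0.061 in R213G PBS lungs (SD, n = 4 each). They made up 0.782% ± 0.025 in WT bleomycin lungs (SD, n = 4) and 0.878% ± 0.009 in WT PBS lungs (SD, n = 3). Neither pair of groups overlapped, and the bleomycin lungs held the smaller share in each genotype. The miR-151 arms held most of these counts (91.9% in R213G bleomycin and 95.6% in R213G PBS lungs). The share thus mostly repeats their levels and is no separate result, and in R213G the fall of miR-151-3p was already known.

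**Figure D1:**
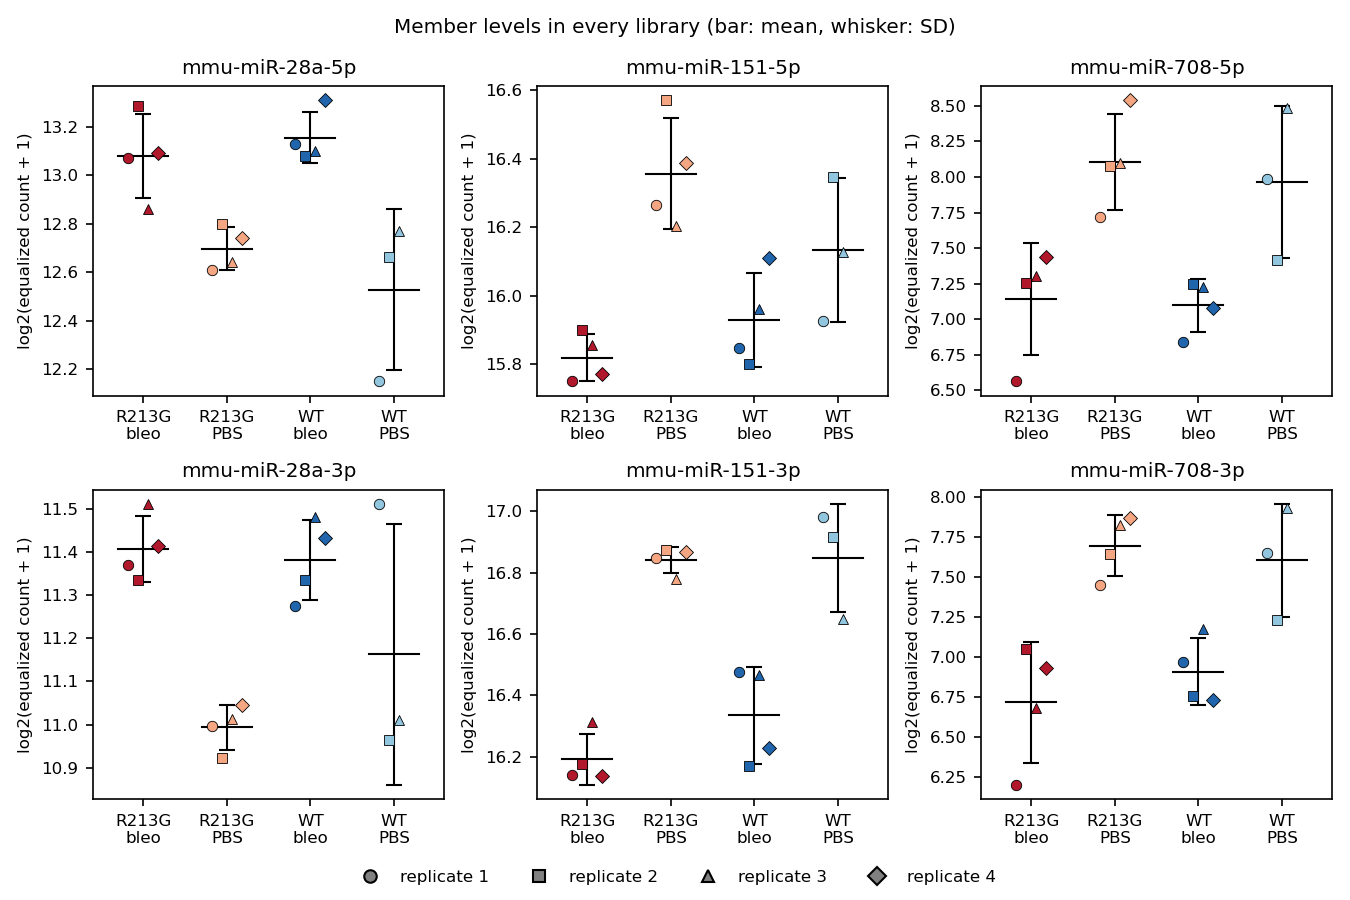
Levels of the 6 members, as log2(equalized count + 1), in each of the 15 libraries by group, with a panel per miRNA; horizontal bars are group means, whiskers are SD and symbols mark the replicate. The miR-28a-5p points of bleomycin lungs lie above those of PBS lungs in each genotype, and the miR-151-3p, miR-708-5p and miR-708-3p points lie below them; WT PBS replicate 1 stands at 12.15 for miR-28a-5p and 11.51 for miR-28a-3p.

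Bleomycin against PBS in WT lungs shows how the family stands after injury when EC-SOD is unaltered. In WT lungs miR-28a-5p rose, and miR-151-3p, miR-708-5p and miR-708-3p fell, while miR-28a-3p and miR-151-5p did not pass. These 4 calls of 6 compare with 26.7% of the 818 miRNAs called in this comparison, 134 up and 84 down (limma, Benjamini-Hochberg adjusted p under 0.05 over all 818). The groups did not overlap for the same 4 members, nor for 32.3% of the 818.

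The 5p arm of miR-28a stood at 13.13, 13.08, 13.10 and 13.31 in the 4 WT bleomycin libraries, against 12.15, 12.66 and 12.77 in the 3 WT PBS libraries. Every bleomycin library lay above every PBS library. The log2 difference was 0.63 ± 0.14 (SE, limma adjusted p = 0.00254), a 1.54-fold rise. Its 95% confidence interval ran from 0.34 to 0.91. Without WT PBS replicate 1, the lowest library, the difference was the smallest of those with 1 library left out, 0.44 (adjusted p = 0.0178), and the call held with each of the 7 libraries left out in turn. The 3p arm, miR-28a-3p, stood at 11.28, 11.33, 11.48 and 11.43 after bleomycin, against 11.51, 10.97 and 11.01 after PBS. The groups overlapped through WT PBS replicate 1 alone. The difference of 0.22 ± 0.12 did not pass (SE, limma adjusted p = 0.19), but without that library it was 0.39 (adjusted p = 0.014).

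Both arms of miR-151, the abundant pair, were lower on average after bleomycin. For miR-151-3p the WT bleomycin libraries held 16.48, 16.17, 16.47 and 16.23, against 16.98, 16.92 and 16.65 in WT PBS. The groups did not overlap, and the log2 difference of -0.51 ± 0.10 (SE, limma adjusted p = 0.00149) is a ratio of 0.70. This call held with each library left out and was lost with quantile normalization (-0.29, adjusted p = 0.0696). For miR-151-5p the values were 15.85, 15.80, 15.96 and 16.11 after bleomycin, against 15.93, 16.34 and 16.13 after PBS. These groups overlapped, and the difference of -0.20 ± 0.11 did not pass (SE, limma adjusted p = 0.201).

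The scarce arms of miR-708 were lower after bleomycin too. The 4 WT bleomycin libraries held 6.84, 7.25, 7.22 and 7.08 for miR-708-5p, against 7.99, 7.42 and 8.49 in the 3 WT PBS libraries. No bleomycin library reached the lowest PBS library, and the log2 difference was -0.87 ± 0.25 (SE, limma adjusted p = 0.0169). For miR-708-3p the values were 6.97, 6.76, 7.18 and 6.73 after bleomycin, against 7.65, 7.23 and 7.93 after PBS. The groups again did not overlap, though they came within 0.1 of each other, and the difference was -0.69 ± 0.21 (SE, limma adjusted p = 0.0205).

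These miR-708 calls depended on single libraries. For miR-708-5p significance was lost on leaving out WT PBS replicate 1 (-0.85, adjusted p = 0.0517) or WT PBS replicate 3 (-0.60, adjusted p = 0.0827). For miR-708-3p it was lost on leaving out WT PBS replicate 1 (-0.67, adjusted p = 0.0643), WT PBS replicate 3 (-0.53, adjusted p = 0.0856), WT bleomycin replicate 2 (-0.64, adjusted p = 0.0549) or WT bleomycin replicate 4 (-0.64, adjusted p = 0.0577). Without WT PBS replicate 3 the calls of the family numbered 2 in place of 4. The authors' deposited table lists a q-value under 0.05 for 11 of 1424 miRNAs in WT by its unequal-variance test, and 0 of them were members. By its rank test (Wilcoxon) it lists 0 miRNAs. With 4 libraries against 3 the smallest p this rank test can give is 0.057, so it could call nothing in WT. The members called here by limma stood at that value.

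**Figure D2:**
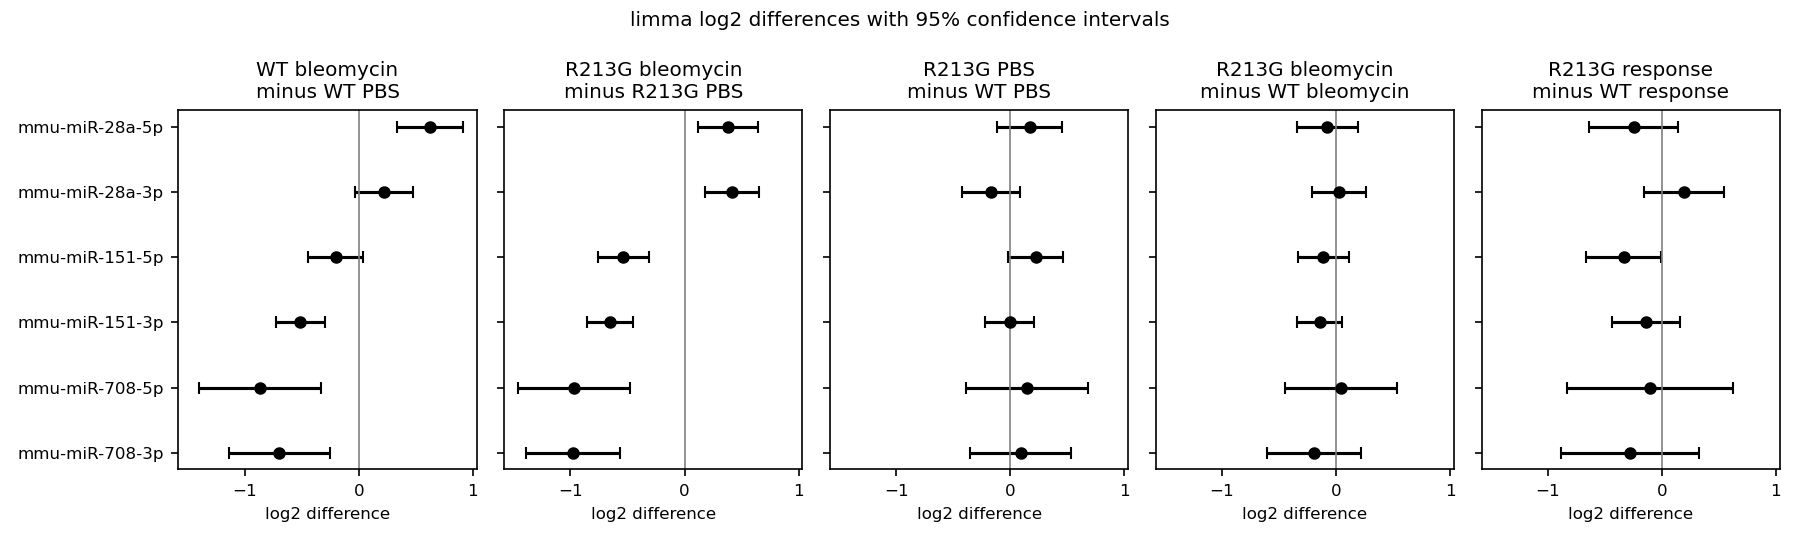
Log2 differences of the 6 members from limma (points) with 95% confidence intervals (whiskers), a panel per comparison, with the group named first minus the group named after it. In WT the intervals of miR-28a-5p, miR-151-3p and both miR-708 arms exclude 0; all 12 intervals between genotypes include 0.

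In R213G lungs the members stood in the same directions, here as a description. Their 5p arm of miR-28a held 13.07, 13.29, 12.86 and 13.09 after bleomycin, against 12.61, 12.80, 12.64 and 12.74 after PBS, a log2 difference of 0.38 ± 0.13 (SE). The 3p arm held 11.37, 11.33, 11.51 and 11.41, against 11.00, 10.92, 11.01 and 11.04, a difference of 0.41 ± 0.11 (SE). In both arms the lowest bleomycin library was above the highest PBS library.

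For miR-151-5p the R213G bleomycin libraries held 15.75, 15.90, 15.86 and 15.77, against 16.27, 16.57, 16.20 and 16.39 in R213G PBS, a log2 difference of -0.54 ± 0.11 (SE). For miR-151-3p they held 16.14, 16.18, 16.31 and 16.14, against 16.85, 16.87, 16.78 and 16.87 in R213G PBS, a difference of -0.65 ± 0.09 (SE). Each arm was lower in every bleomycin library than in any PBS library.

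The miR-708-5p values were 6.56, 7.26, 7.31 and 7.44 in R213G bleomycin lungs and 7.72, 8.07, 8.10 and 8.54 in R213G PBS lungs, a log2 difference of -0.97 ± 0.23 (SE). The miR-708-3p values were 6.20, 7.05, 6.68 and 6.93 in R213G bleomycin lungs and 7.45, 7.64, 7.82 and 7.87 in R213G PBS lungs, a difference of -0.98 ± 0.19 (SE). R213G bleomycin replicate 1 was the lowest library for both arms. The groups did not overlap for any of the 6 members, nor for 39.2% of the 818 miRNAs. An adjusted p under 0.05 was reached by 42.1% of the 818 miRNAs in this comparison and by 6 of the 6 members. Nothing is read from that count, since the comparison was known when the members were taken. The authors' deposited table lists a q-value under 0.05 for 160 miRNAs here by its unequal-variance test, 3 of them members (miR-151-5p, miR-151-3p and miR-28a-3p), and for 0 miRNAs by its rank test. All 6 members already stood at the smallest p that a rank test of 4 against 4 libraries can give, so nothing is read from that 0.

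Library tags in the file header run in separate stretches. In R213G mice replicates 1 and 3 hold the lower tags and replicates 2 and 4 the higher ones, with bleomycin and PBS in each. Within replicates 1 and 3 the bleomycin differences were 0.34 and 0.44 for miR-28a-5p and miR-28a-3p, -0.43 and -0.59 for miR-151-5p and miR-151-3p, and -0.97 and -1.19 for miR-708-5p and miR-708-3p. Within replicates 2 and 4 they were, in the same order of members, 0.42 and 0.39, -0.64 and -0.71, and -0.96 and -0.76. The signs were those of all 4 replicates in both stretches. In WT mice every bleomycin tag comes before every PBS tag, and the tags of R213G and WT mice do not overlap. The meaning of the tags is not stated, and tag order cannot be told apart from bleomycin in WT or from genotype.

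Genotype was compared at matched treatment to ask whether the EC-SOD variant alters these miRNAs. No member passed between R213G and WT in either treatment. After PBS 0 of the 6 members were called, with 0% of all 818 miRNAs called (limma; 44 miRNAs and 0 members had an unadjusted p under 0.05). The difference nearest to the threshold was that of miR-151-5p, with means of 16.36 in R213G PBS and 16.13 in WT PBS. Its log2 difference of 0.22 ± 0.11 (SE, limma adjusted p = 0.827) has an interval from -0.02 to 0.47. For miR-708-5p the difference was 0.14, with an interval from -0.39 to 0.68, and for miR-151-3p it was -0.01, with an interval from -0.22 to 0.21.

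After bleomycin 0 of the 6 members were called between genotypes, again with 0% of all 818 (limma; 97 miRNAs and 0 members had an unadjusted p under 0.05). The difference of miR-28a-5p was -0.08 (interval -0.34 to 0.19), that of miR-28a-3p 0.03 (interval -0.21 to 0.26) and that of miR-151-3p -0.14 (interval -0.34 to 0.05). Of the miR-708 arms, miR-708-5p differed by 0.04 (interval -0.45 to 0.54) and miR-708-3p by -0.19 (interval -0.60 to 0.22).

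The bleomycin responses of R213G and WT mice were set against each other by the interaction term, the R213G difference minus the WT difference. Of the 6 members 0 were called, with 0% of all 818 (limma; 65 miRNAs and 1 member had an unadjusted p under 0.05). That member was miR-151-5p, with a response of -0.54 in R213G and -0.20 in WT. The difference between them was -0.33 ± 0.16 (SE, limma adjusted p = 0.611, interval -0.66 to -0.0035). For miR-28a-5p the interaction was -0.25 (interval -0.64 to 0.15) and for miR-28a-3p 0.19 (interval -0.15 to 0.54). The term also rests on the R213G libraries whose result for miR-151-3p was known, and for miR-151-3p it was -0.14 (interval -0.43 to 0.16).

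The balance of the arms was examined within each library, as log2 of the 5p arm minus log2 of the 3p arm. Such a difference is unchanged by a shift of all log2 values of a library, though quantile normalization can alter it. The 5p arm of miR-28a exceeded its 3p arm in 15 of 15 libraries, by 0.64 to 1.95. In miR-151 the 3p arm was the more abundant in 15 of 15, with differences from -1.06 to -0.12. The arms of miR-708 were nearly even, from -0.13 to 0.67.

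For miR-28a the 5p minus 3p differences were 1.70, 1.95, 1.35 and 1.68 in R213G bleomycin lungs and 1.61, 1.88, 1.63 and 1.70 in R213G PBS lungs. They were 1.85, 1.75, 1.62 and 1.88 in WT bleomycin lungs and 0.64, 1.70 and 1.76 in WT PBS lungs. WT PBS replicate 1 stood below the other 14 libraries, with the lowest miR-28a-5p and the second highest miR-28a-3p of all. It was also the lowest for miR-151, at -1.06, against -0.63 to -0.12 in the other 14.

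For the arm balance 0 of the 3 hairpins were called between WT bleomycin and WT PBS lungs, against 7.26% of the 234 hairpins with both arms tested (limma; 57 hairpins and 0 of these 3 had an unadjusted p under 0.05). The difference was 0.41 ± 0.23 for miR-28a (SE, limma adjusted p = 0.285, interval -0.09 to 0.91), and 0.05 without WT PBS replicate 1. It was 0.31 ± 0.16 for miR-151 (adjusted p = 0.254, interval -0.03 to 0.65) and -0.17 ± 0.17 for miR-708 (adjusted p = 0.58, interval -0.54 to 0.20). In R213G lungs, where 25.6% of hairpins were called, the differences were -0.03, 0.11 and 0.01 for miR-28a, miR-151 and miR-708. Between genotypes 0% of hairpins were called after PBS (12 at an unadjusted p under 0.05), 0% after bleomycin (27) and 0% in the interaction (20), with 0 of these 3 at an unadjusted p under 0.05 in each.

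**Figure D3:**
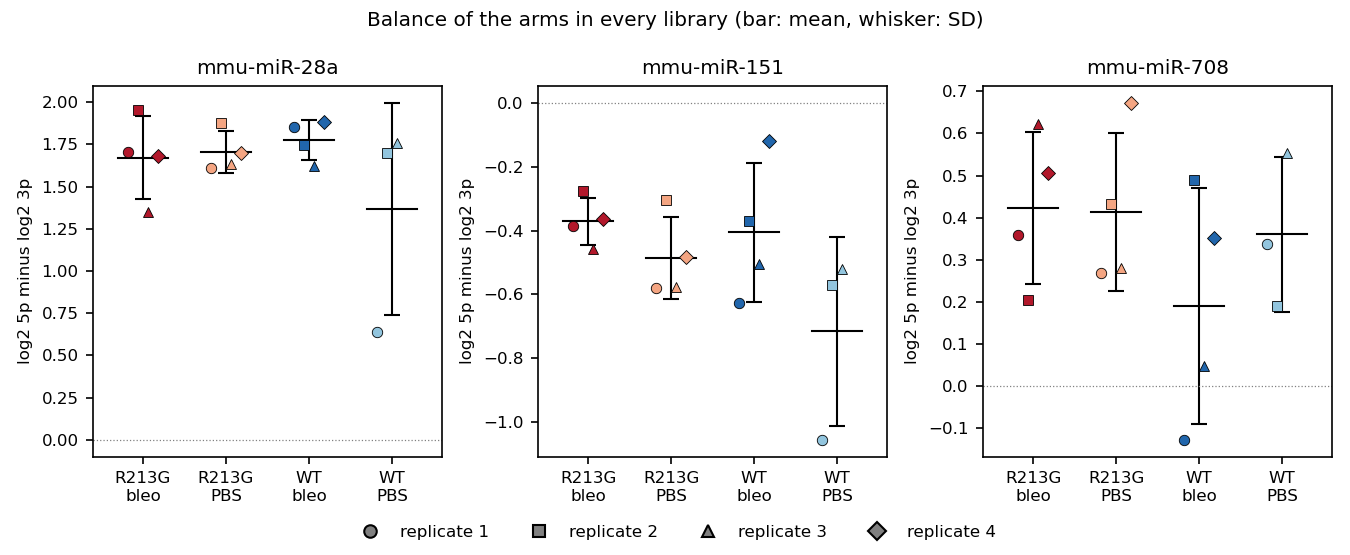
Log2 of the 5p arm minus log2 of the 3p arm for each hairpin in each of the 15 libraries by group; bars are means, whiskers are SD and symbols mark the replicate. The miR-28a and miR-151 balances keep their sign in every library, and WT PBS replicate 1 is the lowest point of both, at 0.64 and -1.06.

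The same within-library view was applied to pairs of hairpins. In WT the level of miR-28a-5p exceeded that of miR-708-5p by 6.29, 5.83, 5.88 and 6.23 log2 units after bleomycin, against 4.16, 5.25 and 4.28 after PBS. The means differed by 1.49. In R213G the excess was 6.51, 6.03, 5.56 and 5.66 after bleomycin, against 4.89, 4.73, 4.54 and 4.20 after PBS, a difference of 1.35 between means. The gap between these 2 miRNAs of the same seed was thus wider in every bleomycin library than in any PBS library. A shift of all log2 values of a library leaves the gap unchanged, and it was not repeated with quantile normalization. On the deposited scale this separation follows from the opposite moves without overlap given above for each miRNA, and is no further result. Pairs of other miRNAs were not compared.

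Their shares of the summed equalized counts show this in percent. Of miR-28a-5p and miR-708-5p together, miR-708-5p supplied 1.07%, 1.50%, 2.07% and 1.93% in R213G bleomycin lungs and 3.24%, 3.63%, 4.10% and 5.14% in R213G PBS lungs. It supplied 1.25%, 1.71%, 1.66% and 1.30% in WT bleomycin lungs and 5.26%, 2.55% and 4.87% in WT PBS lungs. The summed level of the pair followed its abundant partner. On the log2 scale it averaged 13.10 ± 0.17 in R213G bleomycin and 12.76 ± 0.09 in R213G PBS lungs (SD, n = 4 each), and 13.18 ± 0.10 in WT bleomycin (SD, n = 4) and 12.59 ± 0.32 in WT PBS lungs (SD, n = 3). On the deposited scale the bleomycin lungs held more of this pair in each genotype, with no overlap between the groups. In R213G the groups came close, with the lowest bleomycin library at 12.89 and the highest PBS library at 12.85. The sum depends on the scale between libraries and was not repeated on another scale.

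Against miR-151 the miR-28a arms gained in the same way. The log2 level of miR-28a-5p minus that of miR-151-5p lay between -2.86 and -2.72 in WT bleomycin libraries and between -3.78 and -3.36 in WT PBS libraries. In R213G it lay between -2.99 and -2.61 after bleomycin and between -3.77 and -3.56 after PBS. The miR-151 arms made up 91.9% ± 0.7 of the family's equalized counts in R213G bleomycin lungs and 95.6% ± 0.2 in R213G PBS lungs (SD, n = 4 each). Their share was 92.3% ± 0.5 in WT bleomycin (SD, n = 4) and 95.6% ± 0.7 in WT PBS lungs (SD, n = 3), with no overlap in either genotype. These gaps and shares are made from the same member levels as the differences given above. In R213G they restate those opposite moves, with the fall of miR-151-3p known beforehand, and are no further result.

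**Figure D4:**
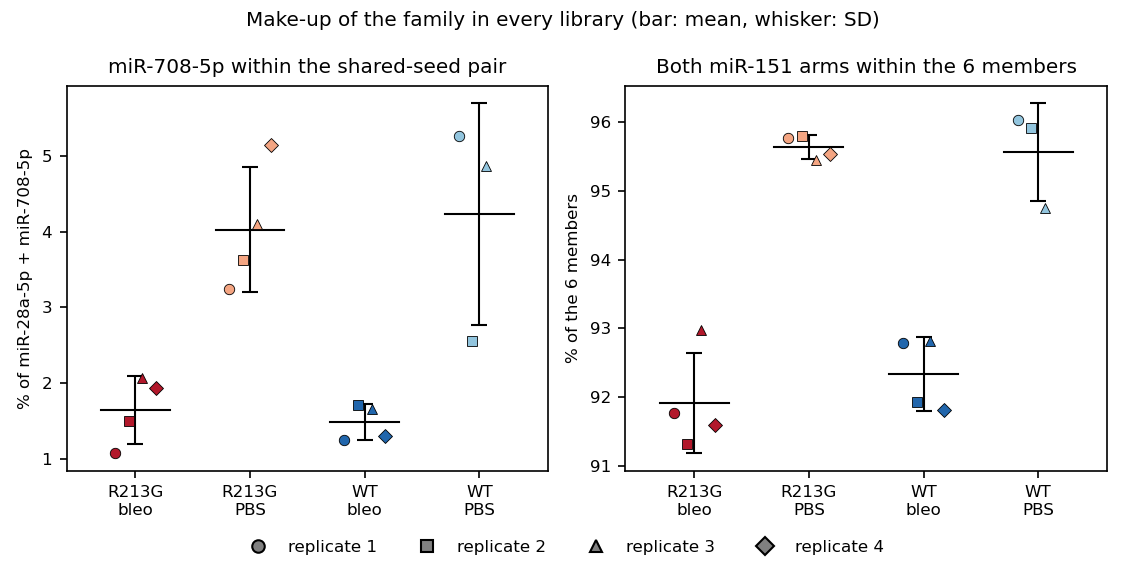
Percent of the summed equalized counts of miR-28a-5p and miR-708-5p that came from miR-708-5p (left) and percent of the 6 members that came from both miR-151 arms (right) in each library; bars are means, whiskers are SD, and neither axis starts at 0. In each genotype every bleomycin library lies below every PBS library in both panels.

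Across the 15 libraries the arms of miR-708 ran together closely (Pearson r = 0.93, and 0.81 for deviations from the group means), as a description of libraries that share their scaling. The arms of miR-151 had r = 0.76, and 0.04 for the deviations. The arms of miR-28a had r = 0.33, and -0.79 for the deviations. Without WT PBS replicate 1 the miR-28a arms had r = 0.79, and -0.37 for the deviations, so the low value rests largely on that library. For the other miRNAs most like each member, the 3 with the highest r were taken. Those of miR-151-3p were miR-30d-5p (0.97), miR-26a-5p (0.97) and miR-328-3p (0.95). Those of miR-151-5p were miR-425-3p (0.91), miR-8112 (0.90) and miR-3102-3p.2-3p (0.88). For miR-28a-5p they were miR-6944-3p (0.96), miR-702-3p (0.92) and miR-674-5p (0.92), and for miR-28a-3p miR-301a-5p (0.91), miR-147-5p (0.88) and miR-200c-5p (0.88).

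Striated muscle miRNAs were among those most like miR-708. For miR-708-5p the nearest were miR-133a-5p (r = 0.86), miR-3086-5p (0.84) and miR-133a-3p (0.84), and for miR-708-3p miR-133a-3p (0.89), miR-219a-1-3p (0.87) and miR-195a-3p (0.86). The list of 3 striated muscle markers (miR-1a-3p, miR-133a-3p and miR-208b-3p) had 2 members down and 1 that did not pass in WT, with a median difference of -0.98 against 0.05 over all 818 miRNAs. No marker was at 0 in every library of a group. The log2 of the list's summed level ran from 12.09 to 13.11 in R213G bleomycin, 14.44 to 14.93 in R213G PBS, 13.03 to 13.87 in WT bleomycin and 14.02 to 16.31 in WT PBS lungs. The top of the last range is WT PBS replicate 3, and both miR-708 calls in WT were lost without it, as they were without WT PBS replicate 1. The part of muscle in the miR-708 result was not tested. In whole lung, fewer cells of a type and less RNA per cell cannot be told apart.

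Smooth muscle and mesenchymal miRNAs were counted beside the family. In WT 3 of the 10 rose, 5 fell and the other 2 missed the threshold, with a median of -0.34 against 0.05 over all 818 miRNAs. By limma, miR-214-3p (0.71, adjusted p = 0.000708), of fibroblasts, rose, and miR-100-5p (-0.47, adjusted p = 0.00117), miR-125b-5p (-0.45, adjusted p = 0.0024) and miR-145a-3p (-0.42, adjusted p = 0.00571) fell. The log2 of the list's summed level ran from 21.36 to 21.66 in WT bleomycin and from 21.65 to 21.86 in WT PBS lungs. The summed level was thus mostly lower after bleomycin, though members of the list moved both ways. The part of smooth muscle or mesenchymal cells in the miR-28a result was not tested.

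Since miR-708 is a CHOP target, 5 other miRNAs linked to the unfolded protein response were counted as well. Of these 4 were tested, as miR-346-5p did not pass the filter, and in WT 1 rose, 1 fell and 2 did not pass, with a median of -0.18. Linked to its PERK branch, miR-216b-5p rose by 1.86 ± 0.57 (SE, limma adjusted p = 0.022), while miR-30c-2-3p, which represses XBP1, fell by 0.42 on the log2 scale (adjusted p = 0.011). Values of 0.05 for miR-211-5p and -0.73 for miR-204-5p did not pass (adjusted p = 0.899 and 0.191). Of the miRNAs that passed, miR-30c-2-3p thus moved in the direction of miR-708 and miR-216b-5p in the other. The part of the unfolded protein response in the miR-708 result was not tested.

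Markers of other cell types that whole lung holds were detected in all groups, with no marker at 0 in every library of a group. In WT 3 of 4 erythroid markers fell, 3 of 4 myeloid and leukocyte markers rose, 0 of 2 endothelial markers were called and 1 of 5 epithelial markers fell (limma). The log2 of the summed myeloid level ran from 16.30 to 16.89 in WT bleomycin and 15.70 to 15.94 in WT PBS lungs, and that of the erythroid level from 14.59 to 15.09 in WT bleomycin and 16.51 to 17.78 in WT PBS lungs. Their part in the differences of the family was not tested.

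The scale between bleomycin and PBS libraries is itself uncertain. Summed equalized counts ran from 19087572.0 to 21189039.9 in WT bleomycin and from 20688471.3 to 24759615.3 in WT PBS libraries. In R213G they ran from 18087289.8 to 21071254.7 after bleomycin and from 21775506.6 to 23232884.4 after PBS. No fit set these sums equal. Setting library medians equal moved the median miRNA by 0.12 in WT and 0.13 in R213G. Relative to that scale the WT differences became 0.51 for miR-28a-5p, -0.63 for miR-151-3p, -0.98 for miR-708-5p and -0.81 for miR-708-3p, and the same 4 members were called. In R213G the differences became 0.25 for miR-28a-5p and 0.28 for miR-28a-3p, in place of 0.38 and 0.41. Quantile normalization shrank the WT falls of miR-151, to -0.29 for miR-151-3p and -0.08 for miR-151-5p. No bleomycin difference of a member changed sign under any alternative in either genotype.

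**Figure D5:**
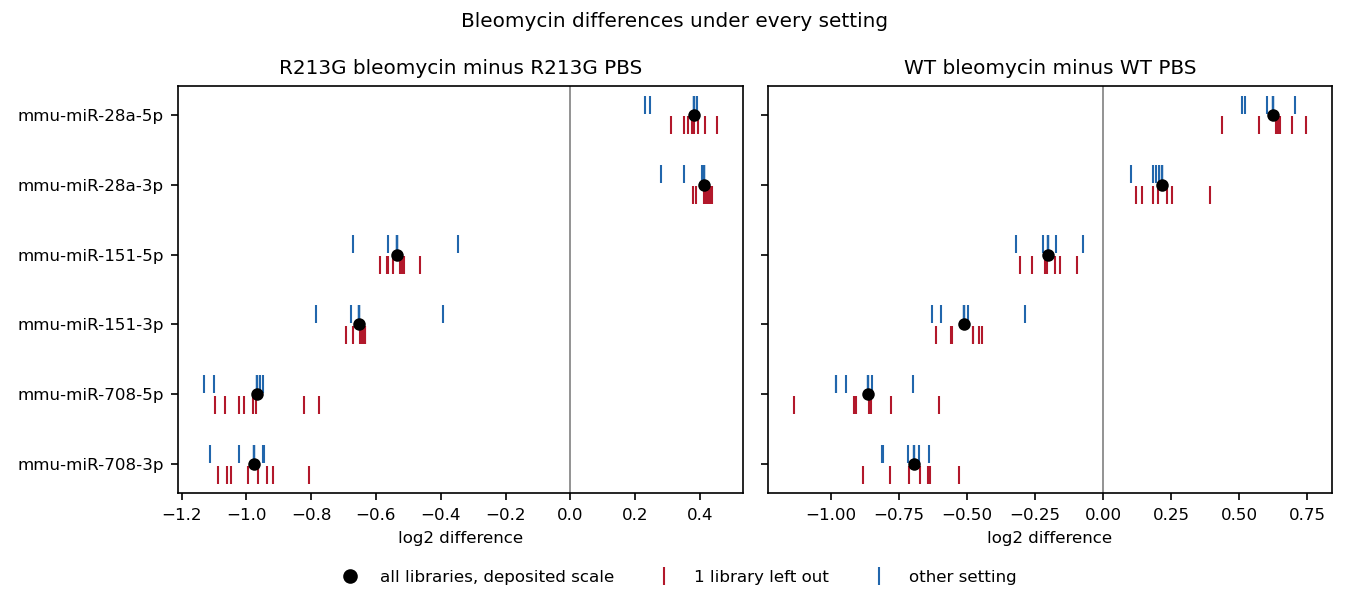
Bleomycin minus PBS log2 differences of the 6 members in R213G (left) and WT (right) with all libraries (black points), with 1 library left out (red ticks) and under the other settings (blue ticks). Both miR-28a arms stay above 0 and the miR-151 and miR-708 arms stay below 0 in every setting; miR-151-5p in WT comes nearest to 0, at -0.08, with quantile normalization.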

How the data were processed

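The members and lists were chosen with earlier results of these data known. Small RNA of whole lung was sequenced on Illumina instruments. The submitters' processing notes name Bowtie2 2.3.2, SAMtools 1.9 and edgeR, with no genome build or miRBase release stated. The authors deposited log2 values per library, taken from the values themselves to be log2 of 1 plus an equalized count. The authors also deposited log2 fold changes, equal to the differences between group means to within 7.17e-09. Welch and Wilcoxon p-values and q-values were deposited beside them. Read depth is unknown, so no counting interval is given.

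The deposited log2 values of 818 miRNAs, those with more than 5 equalized counts in 3 or more libraries, were fitted in R 4.3.3 with limma 3.58.1. The fit had a mean for each of the groups, used all 15 libraries and let the variance follow the level. For 234 hairpins the 5p minus 3p difference was fitted without a trend. Adjusted p-values are by Benjamini-Hochberg over all features of a contrast, called under 0.05. The fits were tested on simulated data with changes planted in WT bleomycin libraries. For miRNAs 67.4% of changes of 1 log2 unit and 34.2% of smaller ones were recovered, and 4.61% of calls were false. For the arm balance of hairpins these were 54%, 22.5% and 5.61%, so a difference that did not pass can be a missed one. The miRNAs named are all 6 members, the 3 most correlated with each, and up to 4 of each list with the smallest p in WT. Alternatives were each library left out, filter, pseudocount, scaling, trend, array weights, groups in the fit, a replicate block and the threshold, and values within tag stretches were added after the data were seen.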

Additional observations from a re-analysis of the deposited data

How the results depend on the processing

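Of 890 alternative values, 845 were scored as unchanged. A difference was so scored if it kept its direction and side of the threshold. Where no test was given, it had to keep its direction and move by less than the spread between libraries. A number of members called was also scored as unchanged after a limited shift, such as 3 in place of 4 in WT or 4 in place of 6 in R213G. Many of the 845 belong to comparisons in which no member was called. Of the 33 that changed sign, 0 belonged to a difference that had passed. The number of members called in WT ran from 2 to 4 with 1 library left out, the 2 without WT PBS replicate 3, and from 3 to 4 under the other settings. In R213G it ran from 4 to 6. Nothing is read from any R213G count of calls, since that comparison was known when the members were taken. Same-numbered libraries were not treated as pairs, since their deviations correlated above 0.1 in only 6 of 14 pairs (from -0.14 to 0.26). Between R213G bleomycin and R213G PBS the correlations of replicates 1 to 4 were -0.14, 0.14, 0.26 and 0.14. With the replicate block 4 members were called in WT, as without it, and 6 in R213G. In R213G 3 of 4 numbers correlated best with their own, a hint of pairing from the data and not from the design, and in WT 0 of 3 did. All sign changes were of differences that did not pass or were given without a test. With quantile normalization they were 0.014 for miR-151-3p after PBS, and -0.0030 for miR-28a-3p and -0.014 for miR-708-5p after bleomycin, all R213G minus WT. With array weights miR-28a-3p after bleomycin stood at -0.0014, and with the replicate block miR-151-3p after PBS at 0.0088 and the miR-708 arm balance after PBS at -0.0028. With 1 library left out, R213G minus WT after PBS ran from -0.019 to 0.29 for miR-28a-5p, -0.27 to 0.0054 for miR-28a-3p, -0.11 to 0.060 for miR-151-3p, -0.13 to 0.41 for miR-708-5p and -0.096 to 0.26 for miR-708-3p, and after bleomycin from -0.0089 to 0.060 for miR-28a-3p and -0.056 to 0.23 for miR-708-5p. The interaction of miR-708-5p ran from -0.36 to 0.17. The arm balances ran from -0.13 to 0.074 for miR-28a and -0.057 to 0.096 for miR-708 in R213G bleomycin minus PBS, from -0.025 to 0.53 for miR-28a and -0.033 to 0.15 for miR-708 in R213G minus WT after PBS, and from -0.20 to 0.0041 for miR-28a and -0.040 to 0.13 for miR-151 after bleomycin. The cause of these shifts was not tested.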

Other observations

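A row named mmu-miR-28c, whose gene lies on chromosome 15 outside the introns of the members' hosts, is no member but bears the family's name. Its log2 values were 8.47, 7.34, 8.44 and 7.28 in R213G bleomycin replicates 1 to 4 and 8.07, 6.67, 8.23 and 6.76 in R213G PBS replicates 1 to 4. In R213G mice replicates 1 and 3, which hold the lower library tags, were thus above replicates 2 and 4 in both treatments. In WT the values were 7.30, 7.29, 8.48 and 7.58 after bleomycin and 7.07, 7.70 and 6.98 after PBS. Bleomycin differences of 0.42 in WT (limma adjusted p = 0.493) and 0.45 in R213G (adjusted p = 0.37) did not pass. How the authors counted reads that match miR-28a-5p and miR-28c alike is not stated, so a split between these rows is uncertain. Among the members miR-28a-5p also divided the R213G libraries by tag in both treatments, in the opposite direction. Its values in replicates 1 and 3 were 13.07 and 12.86 after bleomycin and 12.61 and 12.64 after PBS. In replicates 2 and 4 they were 13.29 and 13.09 after bleomycin and 12.80 and 12.74 after PBS. This division was noticed in the data and was not tested.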
